A study of Drosophila melanogaster with 66 samples.

Results

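The cytochrome P450 genes of Drosophila melanogaster were followed here across sex, founder genotype and inherited chromosome in whole adult flies. A gene was taken as a member when a probe set carried a single symbol that began with Cyp, a family number and a lower-case letter, which leaves the cyclophilins out. This gave 83 probe sets for 81 genes, out of 17104 entries on the array. Cyp12e1 and Cyp18a1 each had 2 probe sets and were represented by the one with the higher mean. By family number, 37 of the genes belonged to clan 3, 32 to clan 4, 8 to the mitochondrial clan and 4 to clan 2. By chromosome arm, 33 lay on 2R, 15 on 3R, 14 on X, 13 on 2L and 6 on 3L.

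P450 enzymes are haem proteins that insert an oxygen atom into small lipophilic molecules, with electrons supplied by a reductase or, in mitochondria, by a ferredoxin. In insects, clan 3 and clan 4 enzymes include those that break down insecticides and plant toxins in the midgut, Malpighian tubules and fat body, and clan 4 also holds enzymes of hydrocarbon and fatty acid chemistry. Enzymes of clan 2 and of the mitochondrial clan include those that make and inactivate the moulting hormone ecdysone, although some mitochondrial enzymes of Drosophila respond to insecticides. Many P450 genes sit in tandem clusters of close relatives and differ in level between strains, sexes and tissues.

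The arrays compared founders with w1118 control flies and then followed the founders' descendants. The founders (F0 test, rpr/cyo; dilp3/ser) carried UAS-rpr, a cell-death gene under GAL4 control, over the CyO-YFP balancer, and the ilp3-GAL4 driver, which is active in the insulin-producing cells of the brain, over the Ser-GFP balancer, all in w1118. Founder males mated to control females gave F1 offspring of 4 genotypes, rpr/+; dilp3/+, rpr/+; ser/+, cyo/+; dilp3/+ and cyo/+; ser/+, of which the first alone combines driver and target. F1 control flies were w1118. F2 and F3 test flies descended from the founders but were w1118 free of constructs, like their F2 and F3 controls.

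All flies therefore shared w1118, and the founders differed from the F1 control in constructs, balancers and generation at once, which cannot be told apart. Founders and the 4 F1 genotypes of a sex were all compared with the same 3 F1 control arrays, so their changes are not independent of each other. Each array held RNA of pooled whole flies raised at 25 °C, in groups of 3 arrays, or 4 in F2 males and in F3. In whole-body RNA, fewer cells of a type and less RNA per cell cannot be told apart. Levels are log2 values per probe set and are compared between groups for the same gene, never between genes. A change is the log2 difference ± standard error from a limma fit with the labelled batch as a term, and calls were made where the p-value, adjusted by Benjamini-Hochberg over every entry in the comparison, was under 0.05. A fold is the ratio of geometric group means without the batch term.

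Some arrays stood apart before any comparison was made. On the F2 female arrays numbered 2, the yolk gene Yp1 was at 9.20 in the control and 11.14 in the test array against 13.71 to 13.86 in the other F2 females, and the eggshell gene Vm26Aa was at 2.71 and 7.47 against 13.23 to 13.34. The F2 control male array numbered 3 had Yp1 at 12.096 and Vm26Aa at 10.85, where the other F2 males had Yp1 at 3.18 or below. These arrays are all in batch 3 and so enter the batch term of every comparison. The female rpr/+; ser/+ and cyo/+; dilp3/+ arrays lay in batches 3 and 4, the F1 control females in batches 1 and 2. The F2 arrays in question, with their same-numbered partners, were therefore also left out as an alternative chosen after seeing the data, and counts are given both ways. No pair of arrays held identical values.

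Of the 81 genes, 74 were expressed highly enough to be tested in females and 73 in males, and 72 in both. Cyp303a1, which is needed for bristle development, stayed at or below 2.85 on every array and was not tested. Cyp308a1 (highest value 3.96), Cyp313a2 (2.25), Cyp316a1 (2.90), Cyp4c3 (2.25) and Cyp6a16 (2.32) were not tested in either sex. Cyp28c1 (highest value 4.49) was tested in males only, and Cyp313a3 (3.93) and Cyp313a5 (5.0) in females only. Cyp12d1-p was measured only by a probe set shared with its near-identical tandem copy Cyp12d1-d, so signal of the copies cannot be told apart and no value is given for Cyp12d1-p. Within groups of F0 and F1 arrays the median SD of the tested P450 genes was 0.63 in females and 0.46 in males, beside 0.45 and 0.36 over all genes tested.

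In founder females a few P450 genes stood far from the control level. Cyp12d1-d, Cyp6g1 and Cyp6d5 were lower in founders, and Cyp4p2 and Cyp4ac3 were higher. These 5 genes, 2 higher and 3 lower, were those called among the 74 tested (6.76%), where 0.828% of all entries tested were called. The median change of the P450 genes was −0.09, against −0.00 over all entries, and 32 of the 74 changes were positive.

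Cyp12d1-d encodes a mitochondrial enzyme whose gene is induced by insecticides and barbiturates. Its level was 3.07, 4.73 and 4.40 in the 3 founder females and 8.46, 9.53 and 9.26 in the 3 control females. The groups were separated by more than 3 log2 units, and 1 founder array lay at the lowest level this probe set reached on any array. The change was −4.75 ± 0.77 (adjusted p 0.00136), and the founder level was at least 32.4-fold lower.

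Cyp6g1 encodes an enzyme that confers resistance to DDT and neonicotinoids when overexpressed. Its level was 9.45, 10.29 and 9.67 in founder females and 11.79, 12.82 and 12.30 in control females. Every founder array lay below every control array. The change was −2.60 ± 0.31 (adjusted p 2.71e-05), a 5.65-fold lower level. Cyp6d5 stood at 10.42, 10.52 and 10.45 in founders and 11.202, 11.278 and 11.131 in controls, a smaller but tightly replicated difference of −0.95 ± 0.17 (adjusted p 0.00484, 1.67-fold).

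Both genes that rose belong to clan 4. Cyp4p2 was at 5.75, 6.41 and 5.83 in founder females and at 4.04, 3.96 and 3.55 in control females, a change of 2.22 ± 0.34 (adjusted p 0.000759, 4.43-fold). Cyp4ac3 was at 4.59, 6.10 and 4.33 in founders and at 3.32, 3.19 and 2.96 in controls, a change of 1.95 ± 0.38 (adjusted p 0.0102, 3.60-fold). The groups did not overlap for either gene. Without founder female array 2, the highest for Cyp4ac3, its adjusted p was 0.0502.

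Among genes of known function that did not pass in females, Cyp6a8 and Cyp6a2, both inducible and high in DDT-resistant strains, changed by 2.27 ± 1.02 (adjusted p 0.508) and 1.21 ± 0.76 (adjusted p 0.709). With the replicate number as a block Cyp6a8 was called (2.92 ± 0.42, adjusted p 0.00138). Cyp6g2, the relative beside Cyp6g1, changed by −1.24 ± 0.40 (adjusted p 0.201), and Cyp6a20, linked to male aggression, by 1.93 ± 0.68 (adjusted p 0.27). With the block Cyp6a20 was called as well (2.39 ± 0.42, adjusted p 0.00563), and so it was without the doubtful F2 arrays (2.52 ± 0.60, adjusted p 0.0463). Cyp4g1, which makes cuticular hydrocarbons in oenocytes, changed by −0.11 ± 0.17 (adjusted p 0.919). Cyp18a1, which inactivates ecdysteroids, changed by −0.20 ± 0.26 (adjusted p 0.902), and Cyp4g15 of the nervous system by 0.20 ± 0.66 (adjusted p 0.968). Cyp4d21, a sex-dependent gene linked to courtship, changed by −1.53 ± 0.77 (adjusted p 0.588), Cyp310a1 by 0.09 ± 0.13 (adjusted p 0.923) and Cyp301a1, of cuticle formation, by −0.38 ± 0.26 (adjusted p 0.759).

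The female calls depended on the arrays and terms in the fit, which change the estimates as well as the spread. With only the compared groups and no batch term, 0 of the 74 genes were called, and with F0 and F1 arrays alone 2 were. Same-numbered arrays of founders and controls deviated together, and with the replicate number as a block 12 genes were called, 6 higher and 6 lower, including the 5 above. The other 7 were Cyp6a8, Cyp6a20, Cyp12a5 and Cyp9f2, which were higher, and Cyp4ac1, Cyp309a2 and Cyp6w1, which were lower. Without the doubtful F2 arrays 6 were called, the 5 and Cyp6a20.

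**Figure D1:**
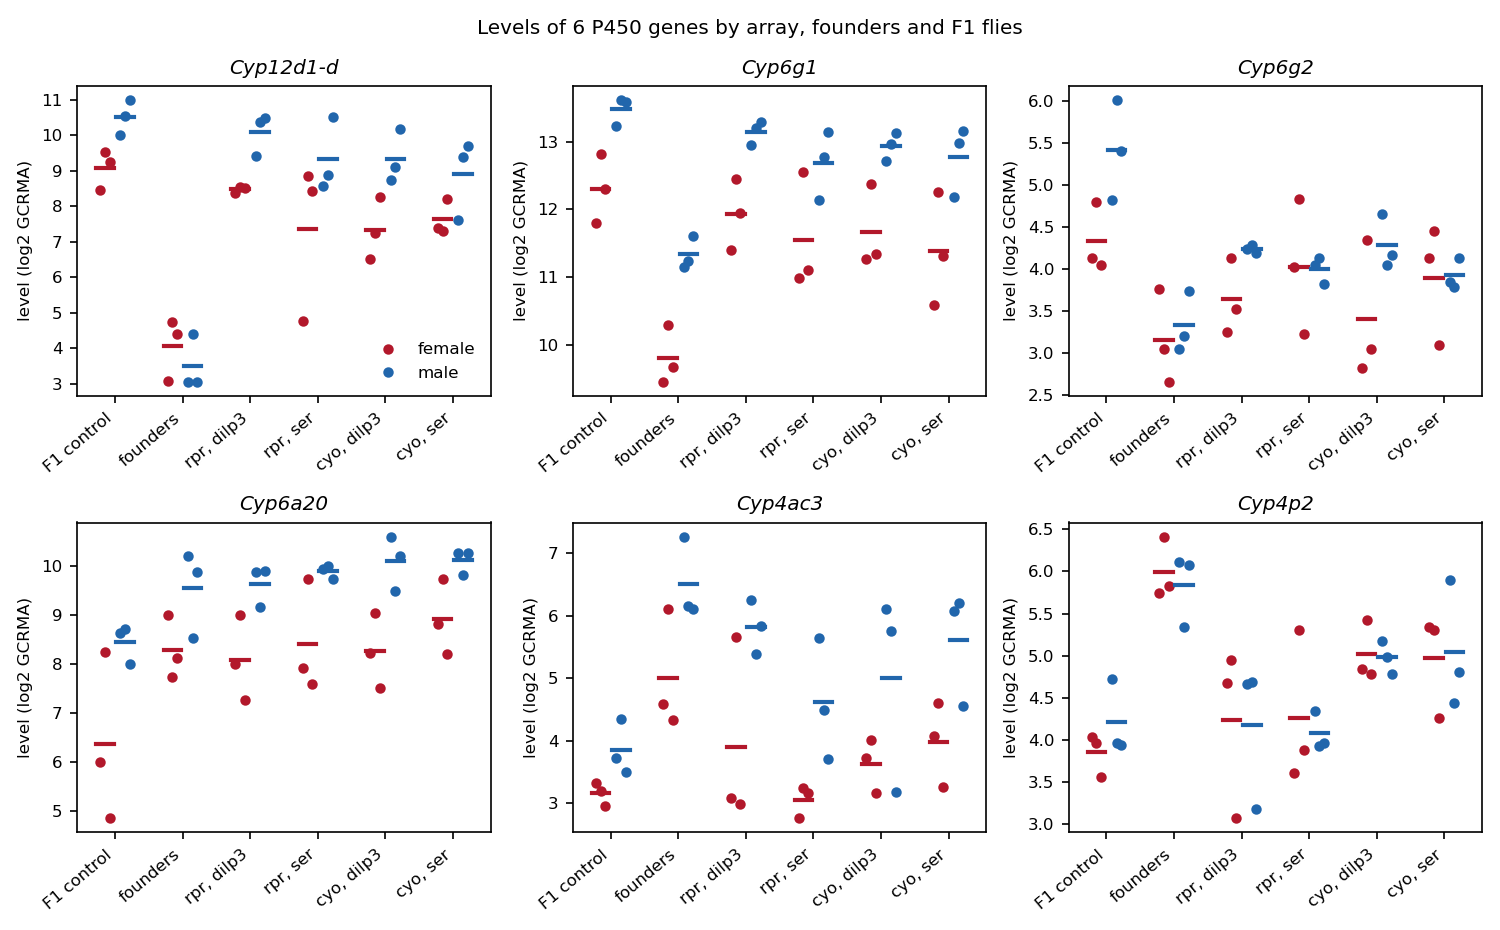
Levels of Cyp12d1-d, Cyp6g1, Cyp6g2, Cyp6a20, Cyp4ac3 and Cyp4p2 (log2, y axis) in founders, F1 controls and the 4 F1 genotypes (x axis), with a dot for each array, a bar for the group mean, females in red and males in blue. The founder dots of Cyp12d1-d lie at 4.73 or below, and all control dots at 8.46 or above.

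The founder males showed more called P450 genes than the females, mostly lower. Cyp12d1-d, Cyp309a2, Cyp6g1, Cyp6g2, Cyp4d14, Cyp6t1, Cyp4ac1, Cyp312a1 and Cyp6a14 were lower than in control males, and Cyp4ac3, Cyp6a9 and Cyp6a20 were higher. These 12 genes, 3 higher and 9 lower, were called among the 73 tested (16.4%). Over all entries too, more were called in males, 390 (3.43%), 139 higher and 251 lower. In females 106 of all entries were called, 51 higher and 55 lower. Quantile normalization split the male P450 calls 4 higher and 6 lower. The median change was −0.18 over the P450 genes and −0.03 over all entries, and 23 of the 73 changes were positive.

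The level of Cyp12d1-d was 3.06, 4.42 and 3.06 in the founder males and 10.01, 10.55 and 10.99 in the control males. Founder arrays 1 and 3 were at the lowest level of this probe set. The change was −7.09 ± 0.77 (adjusted p 2.16e-06), and the founder level was at least 128-fold lower. It was the P450 gene of largest change in both sexes and was called under all 13 alternatives in males.

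Cyp6g1 was at 11.15, 11.24 and 11.61 in founder males and at 13.24, 13.61 and 13.58 in control males, a change of −2.10 ± 0.26 (adjusted p 1.2e-05, 4.41-fold). Its neighbour Cyp6g2 was at 3.05, 3.21 and 3.74 in founders and at 4.82, 6.01 and 5.41 in controls, a change of −2.05 ± 0.25 (adjusted p 1.2e-05, 4.22-fold). Founder and control arrays did not overlap for either gene. Cyp6t3, which lies in the same cluster, changed by −0.06 ± 0.27 in males and 0.02 ± 0.24 in females and was called in neither.

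Cyp309a2 was at 4.53, 3.62 and 4.40 in founder males and at 7.75, 6.96 and 7.0 in control males, a change of −2.74 ± 0.49 (adjusted p 0.00144, 8.29-fold). Its neighbour Cyp309a1 changed by −0.09 ± 0.54 (adjusted p 0.979). Cyp4d14 was at 4.69, 4.81 and 4.56 in founders and at 7.16, 5.90 and 6.36 in controls, a change of −1.69 ± 0.44 (adjusted p 0.0326). Without control male array 1 its adjusted p was 0.176. Cyp6t1, at 4.39, 3.42 and 5.10 in founders and at 6.86, 6.34 and 6.11 in controls, changed by −1.68 ± 0.46 (adjusted p 0.0401), with an adjusted p of 0.216 without control male array 1.

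Cyp312a1 was at 8.87, 8.63 and 8.59 in founder males and at 10.15, 9.94 and 9.91 in control males. The arrays of each group lay close together and the groups were apart, and the change was −1.24 ± 0.24 (adjusted p 0.00313, 2.47-fold). Cyp4ac1 changed by −1.40 ± 0.38 (adjusted p 0.0401, 2.69-fold) and Cyp6a14 by −0.98 ± 0.24 (adjusted p 0.0223, 2.04-fold). Without control male array 2 their adjusted p-values were 0.174 and 0.135.

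Cyp4ac3 was at 7.27, 6.16 and 6.11 in founder males and at 3.72, 4.35 and 3.5 in control males, a rise of 2.68 ± 0.57 (adjusted p 0.00636, 6.31-fold) without overlap. Of its neighbours, Cyp4ac1 fell and Cyp4ac2 changed by −0.47 ± 0.61 (adjusted p 0.839). Cyp6a9 was at 10.17, 8.87 and 8.96 in founders and at 8.36, 8.29 and 7.64 in controls, a rise of 1.24 ± 0.33 (adjusted p 0.0338, 2.36-fold). Cyp6a20 was at 10.22, 8.53 and 9.89 in founders and at 8.64, 8.72 and 8.01 in controls, a rise of 1.20 ± 0.34 (adjusted p 0.0499) in which the groups overlapped. All 3 rises were lost without founder male array 1, with adjusted p-values of 0.0678 for Cyp4ac3, 0.29 for Cyp6a9 and 0.29 for Cyp6a20.

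The genes of known function that did not pass in males were Cyp310a1 (0.98 ± 0.33, adjusted p 0.122), Cyp6a2 (1.40 ± 0.62, adjusted p 0.276), Cyp6a8 (1.5 ± 1.16, adjusted p 0.644) and Cyp4d21 (−2.07 ± 1.16, adjusted p 0.44). Cyp18a1 changed by 0.31 ± 0.29 (adjusted p 0.734), Cyp4g1 by −0.19 ± 0.24 (adjusted p 0.828), Cyp4g15 by 0.17 ± 0.48 (adjusted p 0.945) and Cyp301a1 by −0.00 ± 0.14 (adjusted p 1).

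With only the compared male groups 4 genes were called, with F0 and F1 arrays alone 6, and without the doubtful F2 arrays 8, in each case all lower except 1 in the last. Without founder male array 1 the count was 6. Cyp12d1-d, Cyp6g1, Cyp309a2 and Cyp312a1 were called under all 13 alternatives and Cyp6g2 under 12.

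**Figure D2:**
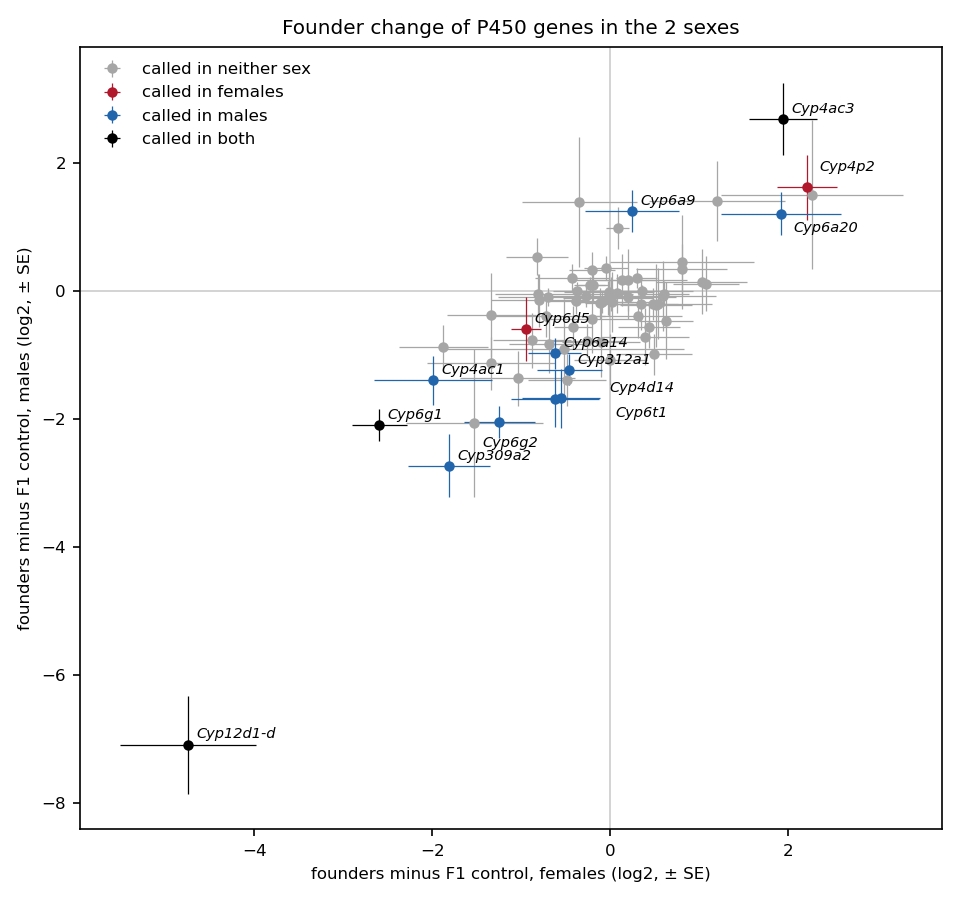
Founder change of the 72 P450 genes tested in both sexes, females on the x axis and males on the y axis (log2, founders minus F1 control, bars ± SE), coloured by the sex in which the gene was called. Cyp12d1-d lies far from all others at −4.75 and −7.09. The 14 called genes have the same sign in both sexes, and the share of all called entries that do was not counted.

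Of the 72 genes tested in both sexes, 3 were called in both, Cyp12d1-d, Cyp6g1 and Cyp4ac3, each in the same direction. Another 2 were called in females only and 9 in males only, and all 14 had changes of the same sign in the other sex. The same counts were not made over all entries. Cyp309a2 changed by −1.81 ± 0.46 in females (adjusted p 0.0752; 0.0344 with the replicate block), Cyp4p2 by 1.61 ± 0.51 in males (adjusted p 0.0858) and Cyp6d5 by −0.60 ± 0.50 in males (adjusted p 0.679). A call in one sex alone is not a difference between the sexes. Tested directly, the founder effect differed between males and females for 0 of 75 P450 genes (limma), with 6 at an unadjusted p under 0.05 and 0.12% of all entries called.

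The largest difference of founder effects was that of Cyp12d1-d, −2.05 ± 1.12 (95% interval −4.30 to 0.20, adjusted p 1). The smallest p belonged to Cyp4ad1, whose founder effect was 1.25 ± 0.44 higher in males (95% interval 0.36 to 2.14, adjusted p 0.588). For Cyp6g1 the difference was 0.25 ± 0.51 (95% interval −0.78 to 1.29).

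The called genes fell in several clans and arms. In females both rises were in clan 4 (29 tested), 2 falls in clan 3 (34 tested) and 1 in the mitochondrial clan (8 tested). In males clan 3 had 2 rises and 5 falls of 35 tested, clan 4 had 1 rise and 3 falls of 27, and the mitochondrial clan had 1 fall of 8. None of the 3 tested clan 2 genes was called in either sex. On 2R, 3 of 33 tested genes were called in females and 6 in males, where 1.15% and 4.04% of all entries on that arm were called. On 2L, Cyp4ac3 was the 1 of 11 called in females, where 0.783% of all entries on that arm were called. In males Cyp309a2, Cyp4ac1 and Cyp4ac3 were called of 11, where 4.62% of all entries were. On 3R, 1 of 13 was called in females, Cyp6d5, and 0 of 11 in males, with 0.776% and 2.75% of all entries called. On X, 0 of 12 were called in females and 2 of 13 in males, Cyp4d14 and Cyp6t1, with 0.488% and 2.67% of all entries called. On 3L, 0 of 5 were called in females and 1 of 5 in males, Cyp312a1, with 0.844% and 3.15% of all entries called.

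Within the 9-gene Cyp6a cluster on 2R, Cyp6a9 and Cyp6a20 rose in founder males and the other 7 did not pass. In males Cyp6a22 changed by 0.14 ± 0.51, Cyp6a17 by −0.23 ± 0.64, Cyp6a23 by −0.56 ± 0.33, Cyp6a19 by 0.45 ± 0.73, Cyp6a21 by −0.45 ± 0.52, Cyp6a8 by 1.5 ± 1.16 and Cyp317a1 by 0.09 ± 0.12. In females 0 of the 9 passed without the block and Cyp6a8 and Cyp6a20 with it, and Cyp6a22 changed by 1.03 ± 0.51 (adjusted p 0.576). In the Cyp4p cluster of females, Cyp4p2 rose while Cyp4p1 changed by 0.54 ± 0.61 and Cyp4p3 by −0.80 ± 0.54 (adjusted p 0.743).

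Other genes of P450 biology were measured beside the family. Of 5 ecdysteroid synthesis genes with their own names tested in females and 1 in males, 0 were called in founders (limma). Of 8 genes for electron donors and haem synthesis 0 were called, with median changes of 0.24 in females and −0.15 in males. Of 9 regulators of the xenobiotic response, such as cnc, Keap1 and Hr96, 0 were called, with medians of −0.18 and 0.01.

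Markers of the tissues in which P450 genes are used moved in part with the founder comparison. The mean log2 level of the 9 measured midgut markers was 8.62 to 10.05 in founder males against 10.75 to 11.15 in control males, and 8.64 to 10.60 in founder females against 9.78 to 11.13 in control females. In males 4 of the 9 midgut markers fell, where 3.43% of all entries were called. They were the digestive proteases Jon99Ci (−4.49 ± 1.09, adjusted p 0.0195), Jon25Bi (−3.04 ± 0.50, adjusted p 0.000611) and Jon25Bii (−4.15 ± 0.74, adjusted p 0.00144), and Npc2f (−1.97 ± 0.53, adjusted p 0.0388). In females 0 of the 9 were called, where 0.828% of all entries were. Lower mean midgut levels were not limited to founders. In cyo/+; ser/+ and rpr/+; ser/+ males they were 9.87 and 10.18, against 9.19 in founders and 10.97 in controls. In females of these genotypes they were 9.296 and 9.25, against 9.306 in founders and 10.297 in controls. In rpr/+; dilp3/+ and cyo/+; dilp3/+ flies they were 11.0999 and 10.53 in males, and 10.81 and 9.86 in females. In the ser genotypes 0 of the 9 were called. The mean log2 level of the 7 fat body markers was 8.17 to 8.88 in founder females against 8.97 to 9.28 in control females, and 8.39 to 9.27 in founder males against 9.47 to 10.005 in control males, so the groups did not overlap in either sex. None of the 7 changes was positive in either sex, with medians of −0.94 in females and −0.25 in males, and 1 passed, the storage protein gene Lsp2 in females (adjusted p 0.0486). The 6 Malpighian tubule markers and the oenocyte markers (4 tested in females, 3 in males) had 0 calls in either sex. So had the ovary, yolk, testis, accessory gland and photoreceptor markers. The median change over 6 ovary markers in females was 1.11 with the batch term. Without that term the arrays overlapped, with mean log2 ovary levels of 9.38 to 9.92 in founder females and 8.32 to 10.44 in control females. The part of gut content or tissue in the P450 changes was not tested.

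The F1 males of each genotype differed from the control males in 2 P450 genes. The percentage of all entries called was 0.22% for rpr/+; dilp3/+, 0.484% for rpr/+; ser/+, 0.282% for cyo/+; dilp3/+ and 0.396% for cyo/+; ser/+. Cyp6g2 was lower in each genotype, and Cyp6a20 was higher in the last 3. In rpr/+; dilp3/+ males the second gene was Cyp310a1. All 4 comparisons used the same 3 control arrays, so a gene called in several of them is not several independent results.

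Cyp6g2 stood at 4.82, 6.01 and 5.41 in the control males. It was at 4.24, 4.28 and 4.19 in rpr/+; dilp3/+ males, a change of −1.15 ± 0.25 (adjusted p 0.0486). It was at 4.05, 4.14 and 3.83 in rpr/+; ser/+ males, a change of −1.41 ± 0.24 (adjusted p 0.0031). None of these arrays reached the lowest control array. It was at 4.65, 4.05 and 4.17 in cyo/+; dilp3/+ males, a change of −1.12 ± 0.24 (adjusted p 0.0414), and at 3.85, 3.79 and 4.14 in cyo/+; ser/+ males, a change of −1.34 ± 0.25 (adjusted p 0.00989). The founder males lay below all of these, with 3.74 as their highest value. The Cyp6g2 calls of rpr/+; ser/+ and cyo/+; ser/+ males held under 12 and 10 of 13 alternatives, those of rpr/+; dilp3/+ and cyo/+; dilp3/+ males under 1 and 2. Without rpr/+; dilp3/+ male array 3 the adjusted p of the first was 0.441, without control male array 2 that of cyo/+; dilp3/+ males was 0.299, and without control male array 3 that of cyo/+; ser/+ males was 0.0599.

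Cyp6a20 stood at 8.64, 8.72 and 8.01 in control males. It was at 9.95, 10.02 and 9.75 in rpr/+; ser/+ males (1.45 ± 0.33, adjusted p 0.0411), at 10.61, 9.49 and 10.22 in cyo/+; dilp3/+ males (1.65 ± 0.33, adjusted p 0.0268) and at 10.27, 9.82 and 10.27 in cyo/+; ser/+ males (1.68 ± 0.34, adjusted p 0.0216). In rpr/+; dilp3/+ males it was at 9.88, 9.16 and 9.91 and did not pass (1.30 ± 0.34, adjusted p 0.176). Every array of the 4 genotypes was above every control array. The 3 calls rested on control male array 3, without which their adjusted p-values were 0.247, 0.173 and 0.209.

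Cyp310a1 was at 4.67, 3.16 and 4.58 in rpr/+; dilp3/+ males and at 2.41, 2.41 and 2.47 in control males, near the lowest value of its probe set. The change was 1.76 ± 0.33 (adjusted p 0.0201), at least 3.26-fold. Without rpr/+; dilp3/+ male array 1 the adjusted p was 0.232. In cyo/+; ser/+ males Cyp310a1 was at 2.41, 2.60 and 2.41, as low as in the control.

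The 3 genes called in founders of both sexes did not pass in the F1 sons. Mean Cyp12d1-d levels in males were 10.09, 9.32, 9.35 and 8.90 in the order of genotypes above, where the founders were at 3.51 and the controls at 10.52, and none of the 4 F1 changes passed (adjusted p 0.612 to 0.999). Mean Cyp6g1 levels were 13.15, 12.69, 12.93 and 12.77, with 11.34 in founders and 13.48 in controls, and adjusted p-values of 0.227 to 0.999. Mean Cyp4ac3 levels were 5.83, 4.62, 5.01 and 5.62, with 6.51 in founders and 3.85 in controls, and adjusted p-values of 0.196 to 0.844. For all 3 genes the F1 means lay between those of founders and controls.

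With the replicate number as a block, which same-numbered arrays bore out for 3 of these comparisons, 7 P450 genes were called in rpr/+; ser/+ males, 4 in cyo/+; dilp3/+ males and 11 in cyo/+; ser/+ males. With only the compared groups 0 were called in each of the 4 genotypes. Without control male array 3 the counts were 0 in rpr/+; dilp3/+, cyo/+; dilp3/+ and cyo/+; ser/+ males and 1 in rpr/+; ser/+ males.

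**Figure D3:**
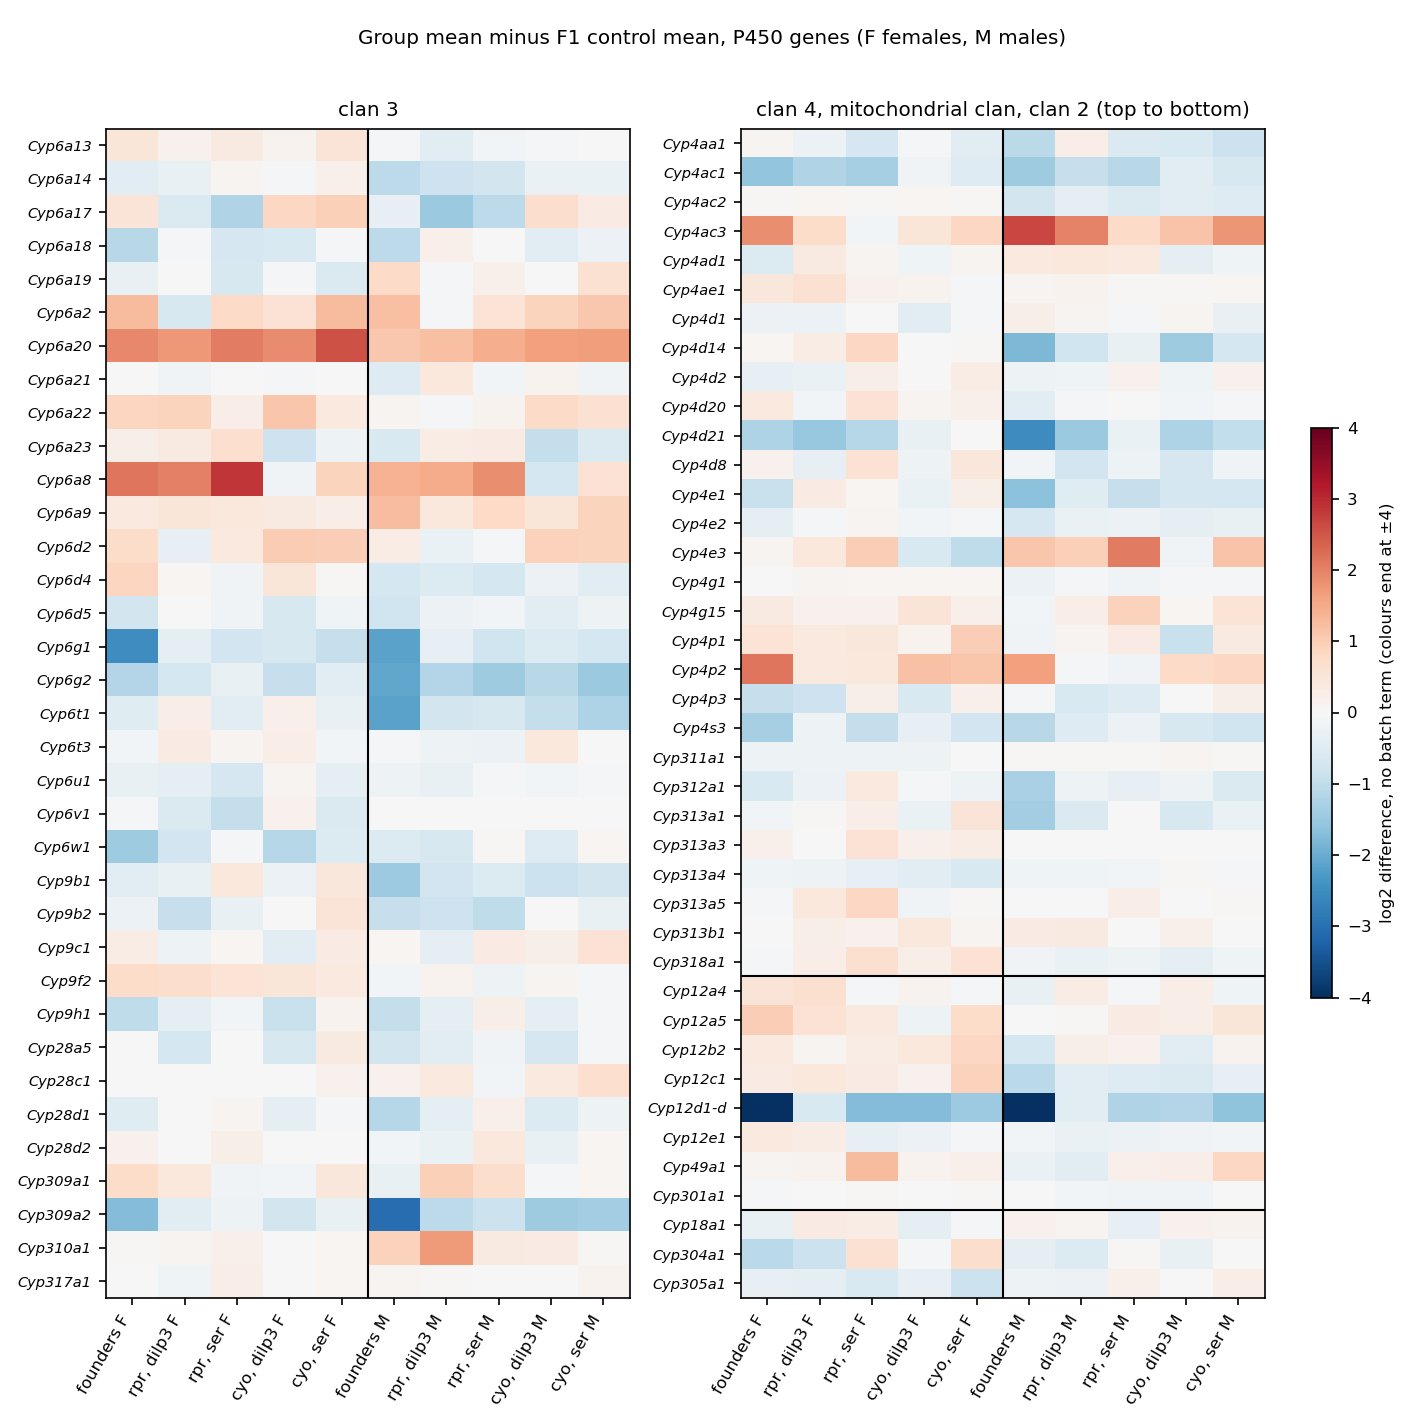
Heat map of group mean minus F1 control mean (log2, no batch term) for the 75 P450 genes tested in either sex (rows; clan 3 on the left, clans 4, mitochondrial and 2 on the right) in founders and the 4 F1 genotypes of each sex (columns), with colours ending at ±4. Cyp12d1-d is the darkest row in the founder columns, and 21 of 73 founder male differences are positive.

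The F1 females gave counts that depended on batch. In rpr/+; dilp3/+ females 0 P450 genes were called (0.117% of all entries; limma; 7 at an unadjusted p under 0.05), and the smallest p belonged to Cyp9f2 (0.85 ± 0.27, adjusted p 0.654). In cyo/+; ser/+ females 0 were called (0.18% of all entries; 9 unadjusted), and the smallest p belonged to Cyp6g1 (−1.14 ± 0.30, adjusted p 0.16), at 10.58, 12.25 and 11.31 against 11.79, 12.82 and 12.30 in controls. With the replicate block, which the same-numbered arrays of all female F1 comparisons bore out, 1 gene was called in the first and 6 in the second, Cyp12a5, Cyp12c1, Cyp6a2, Cyp6a20 and Cyp6d2 higher and Cyp6g1 lower (−1.01 ± 0.15, adjusted p 0.00279). In the second, only Cyp6a20 was called without the doubtful F2 arrays (2.77 ± 0.57, adjusted p 0.0351).

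In rpr/+; ser/+ females 8 genes were called, all lower, where 8.55% of all entries were called, so the share of P450 genes was close to that of all genes. They were Cyp6a18, Cyp6g1, Cyp6d5, Cyp6a17, Cyp12e1, Cyp4g1, Cyp4ac1 and Cyp6g2, and the arrays of the groups overlapped for each. Cyp4g1 was at 14.10, 14.94 and 14.08 in these females and at 14.15, 14.69 and 14.07 in the controls. This group difference near 0 became −0.74 ± 0.20 (adjusted p 0.0304) with the batch term. Differences without that term were −0.13 for Cyp6d5, −0.30 for Cyp6g2 and −0.32 for Cyp12e1. They were larger for Cyp6a18 (−0.67), Cyp6g1 (−0.76), Cyp6a17 (−1.19) and Cyp4ac1 (−1.32). Without the doubtful F2 arrays 1 gene was called, Cyp6g1, with only the compared groups 0, and with the replicate block 2, both higher. Leaving out control female array 2 gave 2 genes and leaving out control female array 1 gave 14.

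Markers of other tissues were called in the same comparison. All 3 yolk genes (median change 1.97) and 3 of 6 ovary markers (median of the 6, 2.25) were called higher, and 3 of 4 oenocyte markers (−1.24), 2 of 7 fat body markers (−1.23) and 1 of 6 Malpighian tubule markers (−1.16) lower. Before the batch term the arrays overlapped, with mean log2 yolk levels of 13.28 to 14.10 in rpr/+; ser/+ females and 13.54 to 14.22 in control females, and mean ovary levels of 7.76 to 10.003 and 8.32 to 10.44. The part of these tissues in the P450 calls was not tested.

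In cyo/+; dilp3/+ females 21 genes were called, 2 higher and 19 lower, where 20.4% of all entries were called. Cyp6a19 and Cyp6v1 were higher. The lower ones were Cyp6d5, Cyp6a18, Cyp6g1, Cyp6g2, Cyp28a5, Cyp4e3, Cyp4p3, Cyp12e1, Cyp4d1, Cyp4g1, Cyp9h1, Cyp6a14, Cyp313a4, Cyp9c1, Cyp6a13, Cyp4e2, Cyp9b1, Cyp317a1 and Cyp6a23. Cyp6d5 was at 10.59, 10.64 and 10.46, below the control values of 11.202, 11.278 and 11.131, and changed by −1.35 ± 0.21 (adjusted p 0.000704). The groups overlapped for all but Cyp6d5, Cyp313a4 and Cyp6a23, and the share of all entries without overlap was not counted. Without the doubtful F2 arrays 3 genes were called, Cyp6d5, Cyp6g1 and Cyp6a18, with only the compared groups 0, and with the replicate block 2, both higher and none of the 21. Leaving out control female array 2 gave 6. Here too the 3 yolk genes (median change 2.01) and 4 of 6 ovary markers (3.51) were called higher, and 3 of 4 oenocyte (−1.17), 3 of 6 Malpighian tubule (−1.54), 3 of 7 fat body (−1.09) and 1 of 9 midgut markers (−0.27) lower. Their mean log2 levels without the batch term overlapped those of the control females, at 13.64 to 14.01 for yolk and 8.87 to 10.13 for ovary. Their part in the P450 calls was not tested.

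The chromosomes that founders passed on were also compared across the 4 F1 genotypes. The rpr second chromosome against the cyo second chromosome gave 2 P450 genes in females, 1 higher and 1 lower, where 0.234% of all entries were called. They were the tandem neighbours Cyp6a17, which influences temperature preference in flies, and Cyp6a23, and they moved in opposite directions.

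Cyp6a17 was at 6.45, 6.85 and 6.72 in rpr/+; dilp3/+ females and at 6.03, 7.34 and 4.80 in rpr/+; ser/+ females. It was at 8.57, 8.12 and 7.57 in cyo/+; dilp3/+ females and at 8.11, 8.65 and 7.80 in cyo/+; ser/+ females. All 6 rpr arrays lay below all 6 cyo arrays. The difference was −1.66 ± 0.27 (adjusted p 0.00536, 3.42-fold), and it was called under 17 of 19 alternatives.

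Cyp6a23 was at 9.44, 10.08 and 8.62 and at 9.42, 10.42 and 9.24 in the corresponding rpr females, and at 8.39, 8.12 and 8.07 and at 9.65, 8.68 and 8.11 in the cyo females. The groups overlapped, since the cyo/+; ser/+ arrays at 9.65 and 8.68 reached into the range of the rpr females. The difference was 1.14 ± 0.24 (adjusted p 0.0391), called under 4 of 19 alternatives, with an adjusted p of 0.0507 without the doubtful F2 arrays and 0.0902 with the replicate block.

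In males, Cyp6a23 differed by 1.06 ± 0.23 (adjusted p 0.0523), with every rpr array above every cyo array, and Cyp6a17 by −1.76 ± 0.45 (adjusted p 0.117), with overlap. No P450 gene passed in males (limma; 0 of 73, with 12 at an unadjusted p under 0.05 and 0.229% of all entries called). Probe sets of near relatives can share signal, and how far these 2 do was not tested. With the replicate block, 4 genes were called in females.

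**Figure D4:**
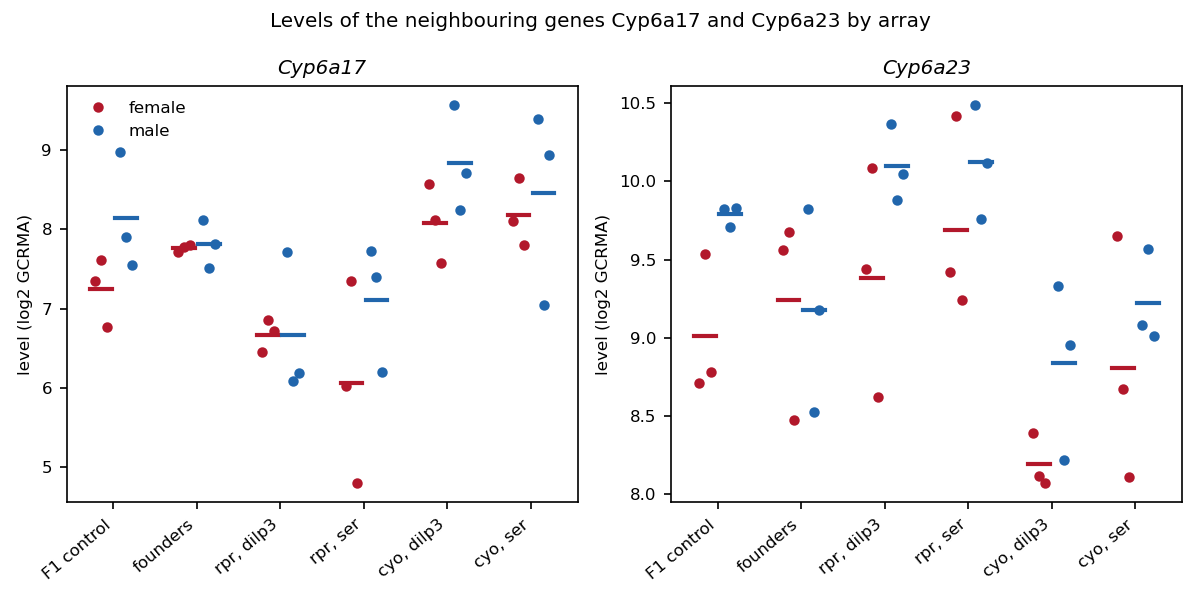
Levels of the neighbours Cyp6a17 and Cyp6a23 (log2, y axis) by group and sex, with a dot for each array and a bar for the group mean. In females the 6 arrays with the rpr chromosome lie at 7.34 or below for Cyp6a17, and the 6 with the cyo chromosome at 7.57 or above.

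The dilp3-bearing against the ser-bearing chromosome gave 0 P450 genes in females (0.187% of all entries; limma; 4 unadjusted), and Cyp12a4, linked to lufenuron resistance, had the smallest p (0.60 ± 0.19, adjusted p 0.352). It gave 0 in males (0.933% of all entries; 7 unadjusted), where Cyp310a1 had the smallest p (0.83 ± 0.23, adjusted p 0.0921). With the replicate block 13 genes were called in females, 1 higher and 12 lower.

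The interaction of rpr and dilp3, that is whether both together differed from the sum of each, gave 30 genes in females, 27 higher and 3 lower, where 31.1% of all entries were called. Estimates ran from −5.69 for Cyp6a19 to 6.07 for Cyp6a18. The other lower genes were Cyp6v1 and Cyp6u1. The other higher genes were Cyp4e2, Cyp4g1, Cyp6d5, Cyp6a14, Cyp12c1, Cyp12a4, Cyp6a17, Cyp6g1, Cyp9c1, Cyp9f2, Cyp12a5, Cyp9b1, Cyp6g2, Cyp6d4, Cyp4d1, Cyp9h1, Cyp4ac3, Cyp4d2, Cyp28a5, Cyp309a1, Cyp6a20, Cyp4p3, Cyp4e3, Cyp6a13, Cyp12e1 and Cyp4p1. Without the doubtful F2 arrays 5 were called, Cyp6g1, Cyp6a18, Cyp6d5, Cyp4ac3 and Cyp4g1, and with only the compared groups or with the replicate block 0. In the same female interaction the 3 yolk genes (median −3.31) and 4 of 6 ovary markers (−5.71) were called lower, and 3 of 6 Malpighian tubule (2.71), 3 of 7 fat body (1.92) and 2 of 4 oenocyte markers (2.01) higher, while of 9 midgut markers 1 was higher and 1 lower. Without the batch term, mean log2 yolk levels were 13.997, 13.72, 13.87 and 13.76 in rpr/+; dilp3/+, rpr/+; ser/+, cyo/+; dilp3/+ and cyo/+; ser/+ females. Mean ovary levels in the same order were 9.80, 8.96, 9.60 and 9.04. The arrays of these genotypes overlapped, and the means show no fall of the size estimated with the batch term. The part of these tissues in the P450 estimates was not tested. In males 0 were called (0% of all entries; limma; 3 unadjusted), and the smallest p was that of Cyp4ac3 (1.95 ± 0.79, adjusted p 1).

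In F2 and F3 no P450 gene passed the test between test and control flies. The count was 0 of 74 in females and 0 of 73 in males in both generations. Of all entries 0% were called (limma), and 0 P450 genes had an unadjusted p under 0.05. Same-numbered test and control arrays deviated together, with correlations of 0.92 to 0.97 in F2 females, which this fit did not use. Unadjusted p-values under 0.05 were few over all entries too, 20 of 12809 in F2 females. With the replicate number as a block the counts of called genes stayed at 0. P450 changes ranged from −0.38 to 0.65 in F2 females, from −0.89 to 0.69 in F2 males, from −0.46 to 0.24 in F3 females and from −0.21 to 0.62 in F3 males. The smallest p belonged to Cyp4ae1 in F2 females (0.39 ± 0.22) and F3 females (−0.26 ± 0.19), to Cyp318a1 in F2 males (0.30 ± 0.15) and to Cyp4aa1 in F3 males (0.62 ± 0.34), each with an adjusted p of 1.

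The genes that differed most in founders can be bounded in their descendants, by the same fit without the replicate block. For Cyp12d1-d the difference was −0.13 in F2 females (95% interval −1.62 to 1.36), −0.31 in F2 males (−1.64 to 1.01), −0.28 in F3 females (−1.57 to 1.01) and −0.13 in F3 males (−1.46 to 1.19). Each interval stops short of the founder change in that sex. For Cyp6g1 it was −0.16 in F2 females (−0.76 to 0.44), −0.08 in F2 males (−0.53 to 0.36), −0.18 in F3 females (−0.70 to 0.34) and 0.15 in F3 males (−0.29 to 0.59).

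Between the sexes, male controls had higher levels of more P450 genes than female controls. In the F1 control 26 of 75 genes were called, 23 higher in males and 3 lower, where 52% of all entries were called, 2830 higher and 4076 lower. The median P450 difference was 0.76 (males minus females), against −0.06 over all entries, and 57 of 75 were positive. Quantile normalization moved the split to 22 higher and 8 lower.

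Cyp312a1 was at 10.15, 9.94 and 9.91 in control males and at 2.83, 4.14 and 3.02 in control females, a difference of 6.66 ± 0.33 (adjusted p 5.1e-23, 102-fold). Cyp313a1 was at 11.18, 9.71 and 8.80 in males and at 5.86, 5.71 and 3.5 in females (4.86 ± 1.10, adjusted p 0.000221, 29.6-fold). Cyp4d21, known as a male-courtship gene, was at 10.69, 8.44 and 7.50 in males and at 4.48, 4.56 and 3.8 in females (4.66 ± 1.03, adjusted p 0.000166, 24.2-fold). In all 3 the sexes were separated.

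Cyp4ac1 was 3.12 ± 0.57 higher in control males (adjusted p 8.99e-06) and Cyp6a8 2.79 ± 1.12 higher (adjusted p 0.0328). Without control female array 3, which was low for Cyp6a8 at 4.11, its adjusted p was 0.336. The other genes higher in control males were Cyp4d14, Cyp6a20, Cyp6a2, Cyp4d2, Cyp309a2, Cyp4e1, Cyp12c1, Cyp6a18, Cyp12b2, Cyp4d8, Cyp9f2, Cyp12a4, Cyp6g1, Cyp4g1, Cyp6d5, Cyp4e2, Cyp4d20 and Cyp6g2.

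The 3 genes lower in control males were Cyp6a19, Cyp6v1 and Cyp6u1. Cyp6a19 was at 3.22, 3.99 and 3.61 in males and at 11.22, 10.05 and 11.17 in females (−6.98 ± 0.97, adjusted p 4.43e-08, 148-fold). In F2 females numbered 2, where the yolk and eggshell genes were low, Cyp6a19 was at 5.07 and 7.08. In the F2 control male numbered 3, where those genes were high, it was at 7.76. Whether Cyp6a19 follows those genes was not tested, and values of Cyp6v1 and Cyp6u1 on these arrays are not given. Cyp6v1 was at 3.43, 3.45 and 3.42 in control males and at 7.31, 4.76 and 6.06 in control females (−2.49 ± 0.49, adjusted p 3.2e-05, at least 6.11-fold), and Cyp6u1 differed by −1.44 ± 0.30 (adjusted p 5.91e-05).

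In founders 21 of 75 genes were called, 16 higher in males and 5 lower, where 44.1% of all entries were called, 2205 higher and 3653 lower. The split was 13 and 9 with quantile normalization. In both sets of flies 13 P450 genes were called, and the overlap over all entries was not counted. Cyp312a1 differed by 5.89 ± 0.34 (adjusted p 2.21e-20), at least 62.5-fold because 1 founder female array lay at the lowest level of its probe set, Cyp313a1 by 3.73 ± 1.14 (adjusted p 0.006), Cyp4ac1 by 3.35 ± 0.59 (adjusted p 5.23e-06) and Cyp4p3 by 1.86 ± 0.66 (adjusted p 0.0186). Cyp4d21 was at 9.85, 5.49 and 3.76 in founder males and at 4.48, 2.41 and 2.27 in founder females, which overlap (3.39 ± 1.07, adjusted p 0.00784; 0.244 without founder male array 1). Cyp6a19 differed by −6.26 ± 1.00 (adjusted p 9.72e-07, 70.5-fold), Cyp6v1 by −2.31 ± 0.51 (adjusted p 0.000177), Cyp6a22 by −1.76 ± 0.51 (adjusted p 0.00411), Cyp6d4 by −1.74 ± 0.55 (adjusted p 0.00764) and Cyp6u1 by −1.27 ± 0.30 (adjusted p 0.000532). Single arrays decided some of these, since the adjusted p was 0.145 for Cyp313a1 without founder female array 2, 0.109 for Cyp4p3 without founder female array 1 and 0.107 for Cyp6d4 without founder male array 3.

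Some genes of known function differed between the sexes as well. Cyp4g1, at 15.42, 15.44 and 15.41 in control males and 14.15, 14.69 and 14.07 in control females, was higher in males (1.06 ± 0.25, adjusted p 0.000395) and also in founders (0.82 ± 0.26, adjusted p 0.00852). Cyp6g1 was 1.09 ± 0.36 higher in control males (adjusted p 0.00868) and 1.35 ± 0.37 higher in founder males (adjusted p 0.00216). Cyp6a2 was 1.75 ± 0.69 higher in control males (adjusted p 0.0317) and 1.72 ± 0.72 higher in founder males (adjusted p 0.0471). Cyp12d1-d did not pass in controls (1.39 ± 0.78, adjusted p 0.135) or founders (−0.66 ± 0.80, adjusted p 0.564).

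Cyp6a20 and Cyp6g2 were called between the sexes in controls only, at 2.07 ± 0.61 (adjusted p 0.00349) and 0.97 ± 0.40 (adjusted p 0.0385), with 0.95 ± 0.62 (adjusted p 0.231) and −0.08 ± 0.41 (adjusted p 0.915) in founders. Cyp310a1 was called in founders only (0.95 ± 0.25, adjusted p 0.00187). None of the 3 had a founder effect that passed as different between the sexes. Cyp4g15 (1.24 ± 0.65, adjusted p 0.108) and Cyp18a1 (−0.46 ± 0.28, adjusted p 0.179) did not pass in controls.

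Cyp312a1, Cyp313a1, Cyp4d21, Cyp4ac1, Cyp6a19, Cyp6v1 and Cyp6u1 were called under all 13 alternatives in controls. Without the doubtful F2 arrays 37 P450 genes differed between control males and females and 21 between founder males and females. Leaving out control female array 3 reduced the control count to 13, and leaving out founder male array 1 reduced the founder count to 10. Whole males and females differ in their reproductive organs, and the part of these organs in the sex differences was not tested.

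**Figure D5:**
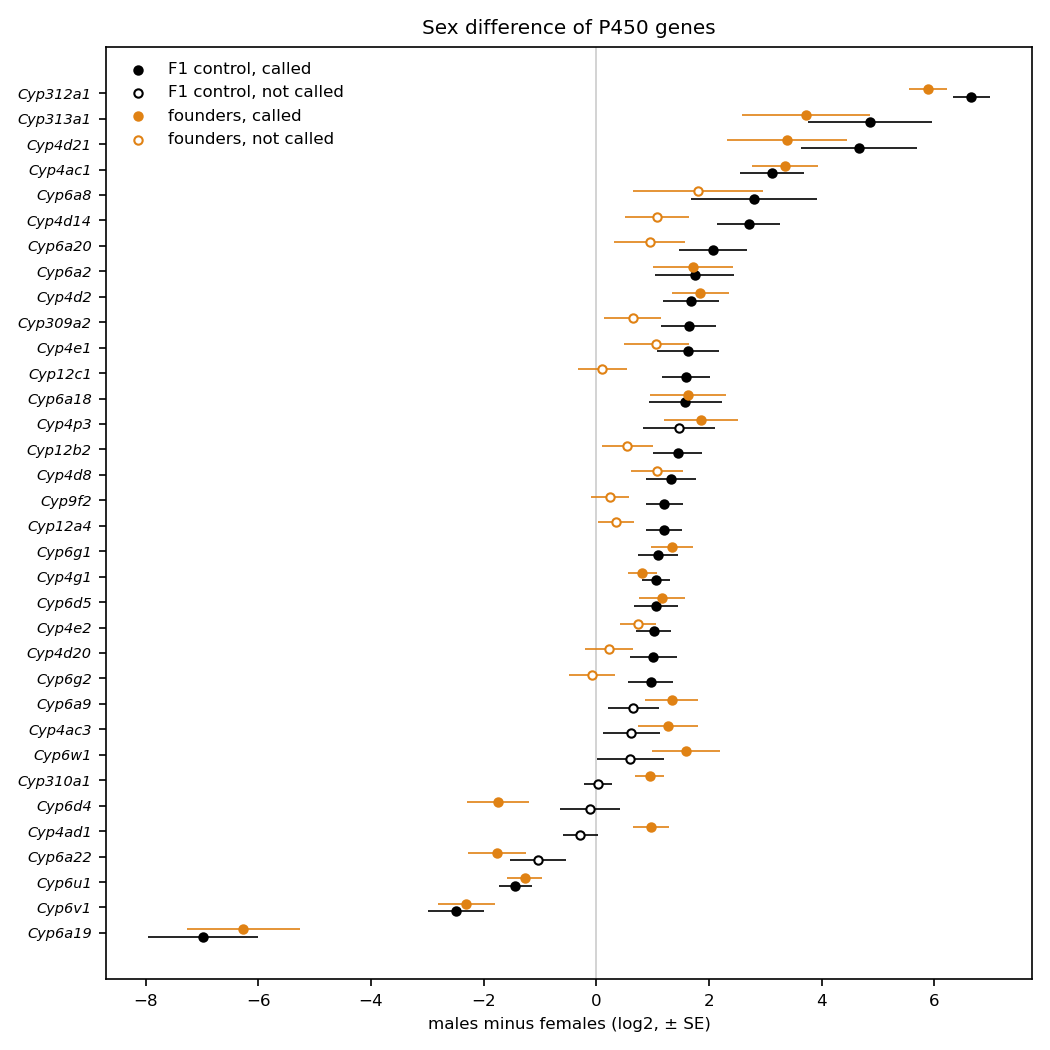
Difference between males and females (log2, males minus females, bars ± SE, x axis) for the 34 P450 genes called in either set of flies (rows), F1 control in black and founders in orange, filled where called. Cyp312a1 lies furthest right at 6.66 and 5.89, and Cyp6a19 furthest left at −6.98 and −6.26.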

How the data were processed

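RNA of whole flies was hybridised to 66 Affymetrix 3' IVT arrays in 20 groups. The deposited log2 values were made with GCRMA, per the submitters' processing notes, which also name limma 3.46.0. The lowest value on every array was 2.2305. Arrays carry no read depth, and their number limits the precision. Of 18952 probe sets, 183 controls were left out. Of the 18769 kept, 13647 carried 1 gene symbol, 402 several and 4720 none. The Entrez IDs of all 83 P450 probe sets matched RefSeq, which changed 0 symbols.

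The fit of each sex kept entries above that sex's 40th percentile (2.50569 in females, 2.63477 in males) on at least 3 arrays, which left 12809, 11357 and, for both sexes together, 13281 entries. All groups of a sex were fitted with the labelled batch (4 batches) by lmFit and eBayes of limma 3.58.1 (R 4.3.3, data.table, version 1.17.8), all 66 arrays for sex differences. Adjusted p-values are Benjamini-Hochberg values of limma's moderated test. Replicates are those of the labels. Figures were drawn with matplotlib 3.10.9 and pandas 2.3.3 in Python 3.11.15.

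The numbers of same-numbered arrays were checked by the correlation of their deviations from group means. They paired the samples (every correlation over 0.1) in all female comparisons (0.27 to 0.51 for founders), in F2 and F3, in 3 F1 male comparisons and between the sexes, but not for founder males, rpr/+; dilp3/+ males, the contrasts among F1 males or the founder effect between the sexes.

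By rule, every called P450 gene of the founder, F1, F2 and F3 comparisons is named, or the one of smallest p, the 5 largest sex differences in each direction, and Cyp6g1, Cyp6g2, Cyp12d1-d, Cyp6a2, Cyp6a8, Cyp4g1, Cyp4g15, Cyp18a1, Cyp4d21, Cyp310a1, Cyp6a20, Cyp303a1 and Cyp301a1 where measured. The other genes called between the sexes are listed by name for completeness, and genes called only under an alternative were named after their values were seen. The members and lists were chosen with earlier results of these data known. Alternatives were a block on the replicate number, a fit without batch, fewer groups in the fit, no filter, quantile normalization, each array left out, and the doubtful F2 arrays left out. Fits of only the compared groups had no batch term. Tested on simulated data for the founder comparisons with 200 changed genes, the fit recovered 64% of changes of 2 log2 units and 23% of 1 in 12809 female entries, and 87% and 35% in 11357 male entries, with 6 false calls each. The changed genes were drawn from all entries, and the simulated noise was independent between arrays, with no batch effect.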

Additional observations from a re-analysis of the deposited data

Results flagged for a closer look

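In the F3 test females Cyp4ac3 was at 3.0262 on array 1, where the nearest of the other 3 arrays was at 3.16323. The gap was 0.91963 of the range of the group, past the limit of Dixon's test. It was the only one past it of the 66 sets of 4 arrays examined, which covered 11 P450 genes in 6 groups, and chance puts about 1 such set in 20 past the limit.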

How the results depend on the processing

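Counts of called P450 genes in the female F0 and F1 comparisons moved with most choices of fit. With only the compared groups they were 0 for founders, 0 for rpr/+; ser/+, 0 for cyo/+; dilp3/+, 0 for rpr against cyo and 0 for the interaction. With arrays of F0 and F1 alone they were 2, 0, 0, 0 and 0 in that order, and with no batch term 3, 0, 0, 1 and 0. Without the doubtful F2 arrays, an alternative chosen after seeing the data, they were 1 for rpr/+; ser/+, 3 for cyo/+; dilp3/+, 1 for cyo/+; ser/+, 1 for rpr against cyo and 5 for the interaction. Rpr against cyo gave 1 with no filter and 1 with quantile normalization.

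In males the founder count was 4 with only the compared groups, 6 with F0 and F1 arrays alone and 7 with no filter. The F1 male counts in the order rpr/+; dilp3/+, rpr/+; ser/+, cyo/+; dilp3/+ and cyo/+; ser/+ were 0, 0, 0 and 0 with only the compared groups and 0, 1, 0 and 0 with F0 and F1 arrays alone. The counts for rpr/+; dilp3/+ and cyo/+; dilp3/+ were 1 and 1 with no batch term and 1 and 1 with quantile normalization, and the first 3 were 1, 1 and 1 with no filter and 1, 1 and 0 without the doubtful F2 arrays. Rpr against cyo in males was 1 with no batch term and 1 with quantile normalization.

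With the replicate block, female counts were 12 for founders, 1 for rpr/+; dilp3/+, 2 for rpr/+; ser/+, 2 for cyo/+; dilp3/+, 6 for cyo/+; ser/+, 4 for rpr against cyo, 13 for dilp3 against ser and 0 for the interaction. Male counts were 27 for founders (7 higher, 20 lower), 7 for rpr/+; ser/+, 4 for cyo/+; dilp3/+, 11 for cyo/+; ser/+, 5 for rpr against cyo and 9 for dilp3 against ser. The replicate block left the other counts within 1.5 times, and the counts of F2 and F3 at 0. In rpr/+; dilp3/+ males, however, its 3 called genes were all higher and included neither of the 2 called without it. For founder males and the contrasts among F1 males the numbers did not pair the samples.

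Leaving out each array in turn gave 5 to 7 genes for founder females, 0 to 0 for rpr/+; dilp3/+, 2 to 14 for rpr/+; ser/+, 6 to 25 for cyo/+; dilp3/+, 0 to 1 for cyo/+; ser/+, 1 to 4 for rpr against cyo, 0 to 0 for dilp3 against ser and 22 to 32 for the interaction. In males it gave 6 to 10 for founders, 0 to 1, 1 to 2, 0 to 1 and 0 to 2 for the 4 F1 genotypes, 0 to 3 for rpr against cyo, 0 to 1 for dilp3 against ser and 0 to 0 for the interaction. It gave 13 to 37 between the sexes in controls, 10 to 21 in founders and 0 to 1 for the founder effect between the sexes. F2 and F3 kept 0 under every alternative run.

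Some called female changes turned sign. With no batch term, and equally with only the compared groups, Cyp4g1 was 0.070 in rpr/+; ser/+ females, and in cyo/+; dilp3/+ females Cyp317a1 was 0.0019, Cyp6a13 0.14, Cyp6a19 −0.058 and Cyp4g1 0.073. For the interaction, Cyp4e3 was −0.99, Cyp4e2 −0.12, Cyp6d4 −0.20, Cyp6a14 −0.13, Cyp4p3 −0.23, Cyp4d2 −0.18, Cyp6a19 0.14 and Cyp9b1 −0.050. With the replicate block Cyp4ac1 was 0.17 and Cyp4g1 0.040 in rpr/+; ser/+ females. In cyo/+; dilp3/+ females Cyp4e2 was 0.079, Cyp6v1 −0.54, Cyp6a14 0.30, Cyp4p3 0.30, Cyp6a13 0.76, Cyp6a19 −0.33, Cyp9b1 0.44 and Cyp4g1 0.043. For the interaction with the block, Cyp4e3 was −0.43, Cyp9h1 −0.45, Cyp12c1 −1.65, Cyp4e2 −0.41, Cyp12a5 −0.86, Cyp6d4 −0.77, Cyp6a20 −3.96, Cyp12a4 −0.25, Cyp6u1 0.69, Cyp6g2 −0.20, Cyp6v1 1.13, Cyp6a14 −0.95, Cyp4p3 −1.51, Cyp6a13 −0.75, Cyp4d2 −0.39, Cyp4p1 −0.60, Cyp6a19 0.77, Cyp9b1 −1.26 and Cyp9f2 −0.15. The cause was not tested. Of the other values of named genes, 1404 kept their side of the threshold, 506 kept direction and lost the call, and 18 gained one. The 1404 include genes not called in either fit, whose direction could differ.

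With 3 arrays a group, changes of about 1 log2 unit were mostly not called in simulations of the founder comparison. Those changes were placed in genes drawn from all entries tested. In F0 and F1 females the median within-group SD was 0.45 over all entries and 0.63 over P450 genes, so recovery of P450 changes was not measured.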
